A study of Mus musculus with 6 samples.

Results

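The genes described here are the 10 members of a trithorax group: the histone methylases Kmt2a, Kmt2b, Kmt2c, Kmt2d, Setd1a, Setd1b and Ash1l, the complex subunits Wdr5 and Ash2l, and the demethylase Kdm6b. They were taken by name from the count tables, which hold 51733 gene symbols, and all 10 were among the 21330 genes with enough reads to be tested. RNA had been sequenced from neural progenitor cells (NPCs) that were sorted for the Sox2-eGFP reporter from mouse neural tubes at embryonic day 13.5. The strain was C57BL/6 for all libraries. The control group, labelled wildtype, had 3 libraries (A, B and C) and the group labelled YBX1KO had 3 (D, E and F). The Ybx1-KO embryos carried the null allele Ybx1tm1Ley in every tissue. The study describes their controls as siblings, which carried the same reporter, a green fluorescent protein placed at the Sox2 locus. Ybx1 is a DNA- and RNA-binding protein, and the study asked how its loss affects expression programs that Polycomb repressive complex 2 (PRC2) controls. For these genes the comparison asks whether the writers that oppose Polycomb were themselves at another RNA level without Ybx1.

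The methylases place methyl groups on lysine 4 of histone H3 (H3K4), a mark of active promoters and enhancers, and they work inside large complexes that share a core with Wdr5 and Ash2l. They fall into pairs of related genes. Setd1a and Setd1b are the broad writers of promoter trimethylation, Kmt2a and Kmt2b act at chosen promoters including those of Hox genes, and Kmt2c and Kmt2d write the monomethyl mark at enhancers. Ash1l methylates lysine 36 of histone H3 and Kdm6b removes methyl groups from lysine 27, the site that PRC2 methylates, so both act against Polycomb by other routes. Kmt2d and Kdm6a are the genes of Kabuki syndrome, and several others in the group are known causes of neurodevelopmental disorders.

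The catalytic SET domain lies at the very end of the 6 Kmt2 and Setd1 proteins, and their family relations can be read in the last 60 bases of their coding sequences, stop codon included. They are shown 5′ to 3′ on the coding strand from GENCODE M21 transcripts, with the 22 bases that all 6 genes share in capitals.
Kmt2a: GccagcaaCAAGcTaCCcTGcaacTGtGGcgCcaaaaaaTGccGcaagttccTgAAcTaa
Kmt2b: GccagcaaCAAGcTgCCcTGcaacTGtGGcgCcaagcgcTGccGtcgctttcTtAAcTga
Kmt2c: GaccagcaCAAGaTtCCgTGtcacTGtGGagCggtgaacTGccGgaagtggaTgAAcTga
Kmt2d: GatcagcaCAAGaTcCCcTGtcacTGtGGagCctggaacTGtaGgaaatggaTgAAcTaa
Setd1a: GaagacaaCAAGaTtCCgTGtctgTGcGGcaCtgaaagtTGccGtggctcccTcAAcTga
Setd1b: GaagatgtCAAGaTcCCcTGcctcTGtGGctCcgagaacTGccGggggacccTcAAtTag

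Within this stretch, Kmt2c and Kmt2d were identical at 50 of 60 bases and Kmt2a and Kmt2b at 48, while Setd1a and Setd1b were identical at 41. Pairs from different branches shared 32 to 39 bases. The shared bases include the TG of cysteine codons, which in this part of the domain hold a zinc ion. Closely related as the proteins are, the genes differed widely over their whole coding sequences in the share of G and C. Kmt2c had 47.3% G and C over its coding bases and 39.8% at the last position of its codons, whereas its partner Kmt2d had 59.4% and 59.9%. Setd1b had 61.8% and 69.5%, and Ash1l had 45.4% and 43.8%.

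The genes are long. By GENCODE M21 on GRCm38, the exons of Kmt2c cover 20291 bases (chr5:25271798-25498783, minus strand), those of Kmt2d 19931 bases (chr15:98831669-98871204, minus strand) and those of Kmt2a 16670 bases (chr9:44803355-44881296, minus strand). Ash1l has 14838 exonic bases (chr3:88950622-89079375, plus strand), Setd1b 12068 (chr5:123142193-123168629, plus strand) and Kmt2b 9596 (chr7:30568858-30588726, minus strand). Ash2l has 8969 exonic bases (chr8:25815996-25847694, minus strand), although its longest protein-coding transcript has 3307. Kdm6b has 6954 (chr11:69398508-69413675, minus strand), Setd1a 6795 (chr7:127776670-127800122, plus strand) and Wdr5 3596 (chr2:27515157-27536535, plus strand). Kmt2c is longer than 99.58% of the tested genes and Wdr5 than 60.6%.

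The libraries held 4743279 to 23883542 counts on genes, and each Ybx1-KO library held fewer than any control. Each member had between 112 counts (Setd1a in F) and 5915 counts (Kmt2a in B). Ybx1 itself, whose gene lies at chr4:119277981-119294604, stood at 238.5, 531 and 306 CPM (counts scaled to the size of the library by the TMM method) in the controls and at 126, 55.3 and 9.66 CPM in D, E and F. The groups did not overlap for Ybx1, but D and E kept reads on the gene. Library F stood apart: it had 8.24 read pairs outside genes for each count on genes, against 1.41 to 2.00 in the other libraries, and 4691 CPM on 1944 receptor genes that neural cells do not use, against 25.5 to 98.3 CPM. Such background would make 4.61% (Kdm6b) to 22.6% (Setd1a) of the members' counts in F and at most 0.714% in any other library. The sorted cells expressed Sox2 in every library (17.5 to 50.6 CPM). The 12 neuron markers summed to 1876 to 5480 CPM, more in each library than the 10 neural progenitor markers (1215 to 2067 CPM). These sums were not divided by exon length, so they do not compare numbers of neurons and progenitors. Mesenchyme and meninges markers summed to 938.5 CPM in control A and to 97.9 to 241.7 CPM elsewhere, with Col3a1 at 327.8 CPM in A and Lum and Dcn above 0 in every library. Erythroid markers ranged from 203.6 to 1234 CPM, neural crest and Schwann lineage markers from 33.0 to 185.2 CPM, endothelial markers from 12.7 to 46.7 CPM and microglia markers from 3.52 to 35.1 CPM, with Aif1 and C1qa at 0 in D and C1qb at 0 in D and E. Control A held Xist at 745.4 CPM beside the Y-linked Kdm5d at 38.0 CPM, and control C was the only library with Kdm5d near 0 (0.152 CPM). The part of these differences in the results was not tested. In bulk RNA, fewer cells of a type and less RNA per cell cannot be told apart.

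None of the 10 genes was called different between Ybx1-KO and control (edgeR quasi-likelihood test, adjusted p below 0.05 and fold change above 1.5). The background is the same: 0.0% of the 21330 tested genes were called in either direction, the smallest adjusted p of any gene being 0.167. With TMM scaling none of the members passed an unadjusted p of 0.05, a limit that 6.96% of tested genes passed as higher and 4.26% as lower. The fitted log2 fold change was above 0 for 8 members and below 0 for 2, Kmt2c and Ash1l. Their median was 0.32, beside 0.31 for all tested genes, of which 61.3% were above 0. The 2 medians were this close only in some fits. Without F, when 15185 genes passed the filter in place of 21330, they were 0.50 for the members and 0.01 for all tested genes. They were 0.13 and 0.67 without E, and 0.41 and 0.15 over protein-coding genes alone. On TMM-normalized CPM all 10 members overlapped between the groups, where 4.99% of tested genes lay wholly above and 8.16% wholly below. Overlap of single members under other scalings was not examined. The exact permutation test on a single gene gave p from 0.2 to 1 over the members, and 3 libraries against 3 allow none below 0.1.

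Setd1a and Setd1b provide the bulk of H3K4 trimethylation in many cells. Setd1b stood at 40.5, 78.3 and 53.7 CPM in the controls and at 133, 106 and 50.01 CPM in D, E and F. The 2 deeper Ybx1-KO libraries were above every control, and F lay between controls A and C. The log2 fold change of Setd1b, 0.75 (SE 0.433, 95% interval -0.17 to 1.66, adjusted p = 0.461 by edgeR), was the highest of the group. It ranked 8151 from the top among the 21330 tested genes, a set that includes genes passing the filter only with F. Without F, 15185 genes were tested with a median of 0.01, and Setd1b was at 1.08. Setd1a stood at 15.1, 31.1 and 22.6 CPM in the controls and at 30.5, 38.4 and 15.9 CPM in the Ybx1-KO libraries. Only E was above all controls, and the log2 fold change was 0.30 (SE 0.428, 95% interval -0.60 to 1.21, adjusted p = 0.746 by edgeR). In GENCODE M21 a readthrough gene, Gm49388, shares 51.8% of the exonic bases of Setd1a on the same strand, but that symbol had no row in the count tables.

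Kmt2a and Kmt2b are the closest relatives of the fly gene trithorax. Kmt2a stood at 171, 277 and 174 CPM in the controls and at 195, 329 and 178 CPM in the Ybx1-KO libraries, with a log2 fold change of 0.17 (SE 0.440, 95% interval -0.76 to 1.10, adjusted p = 0.868). Libraries B and E, 1 from each group, were well above the other 4, which lay between 171 and 195 CPM. Kmt2b stood at 34.3, 63.2 and 53.7 CPM in the controls and at 46.8, 131 and 43.8 CPM in the Ybx1-KO libraries, with a log2 fold change of 0.55 (SE 0.457, 95% interval -0.42 to 1.52, adjusted p = 0.571). Its difference rested on library E. Without E the log2 fold change was -0.03 for each of these genes, so both changed direction.

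Kmt2c and Kmt2d, the enhancer methylases, differed in opposite directions. Kmt2c stood at 232, 254 and 133 CPM in the controls and at 129, 201 and 104 CPM in the Ybx1-KO libraries, with a log2 fold change of -0.51 (SE 0.438, 95% interval -1.44 to 0.41, adjusted p = 0.583). Controls A and B were above every Ybx1-KO library, and control C was among them. Kmt2d stood at 78.9, 149 and 121 CPM in the controls and at 119, 243 and 118 CPM in the Ybx1-KO libraries. The fitted log2 fold change was 0.46 (SE 0.439, 95% interval -0.47 to 1.39, adjusted p = 0.623), and D and F lay between controls A and C.

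Ash1l followed Kmt2c rather than the other methylases. It stood at 162, 203 and 115 CPM in the controls and at 89.1, 152 and 87.0 CPM in the Ybx1-KO libraries, with a log2 fold change of -0.55 (SE 0.419, 95% interval -1.43 to 0.34, adjusted p = 0.535). Kdm6b, which opens Polycomb-repressed genes by demethylating lysine 27, stood at 62.4, 135 and 118 CPM in the controls and at 160, 220 and 79.9 CPM in the Ybx1-KO libraries. As for Setd1b, D and E were above every control while F lay below B and C, and the log2 fold change was 0.55 (SE 0.459, 95% interval -0.42 to 1.52, adjusted p = 0.576). An antisense gene, Kdm6bos, overlaps 4.11% of the exonic bases of Kdm6b and had 17 to 192 counts, against 562 to 2888 for Kdm6b, so the 2 could not be told apart there without the strand setting of the counting.

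The core subunits were the steadiest of the group among the controls. Wdr5, a scaffold that bridges the methylase and its partners, stood at 22.2, 22.7 and 19.8 CPM in the controls and at 33.9, 22.0 and 25.1 CPM in the Ybx1-KO libraries. The fitted log2 fold change was 0.33 (SE 0.376, 95% interval -0.47 to 1.12, adjusted p = 0.689). Its intronless copy Wdr5b had 15 to 142 counts in the same libraries, beside 177 to 485 for Wdr5, and how reads common to both were counted was not stated. Ash2l, which joins the core to stimulate the methylase, stood at 75.6, 71.7 and 71.2 CPM in the controls, a 1.06-fold range, and at 127, 58.9 and 66.8 CPM in the Ybx1-KO libraries. The log2 fold change of 0.21 (SE 0.397, 95% interval -0.63 to 1.05, adjusted p = 0.818) rested on D, without which it was -0.29.

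**Figure D1:**
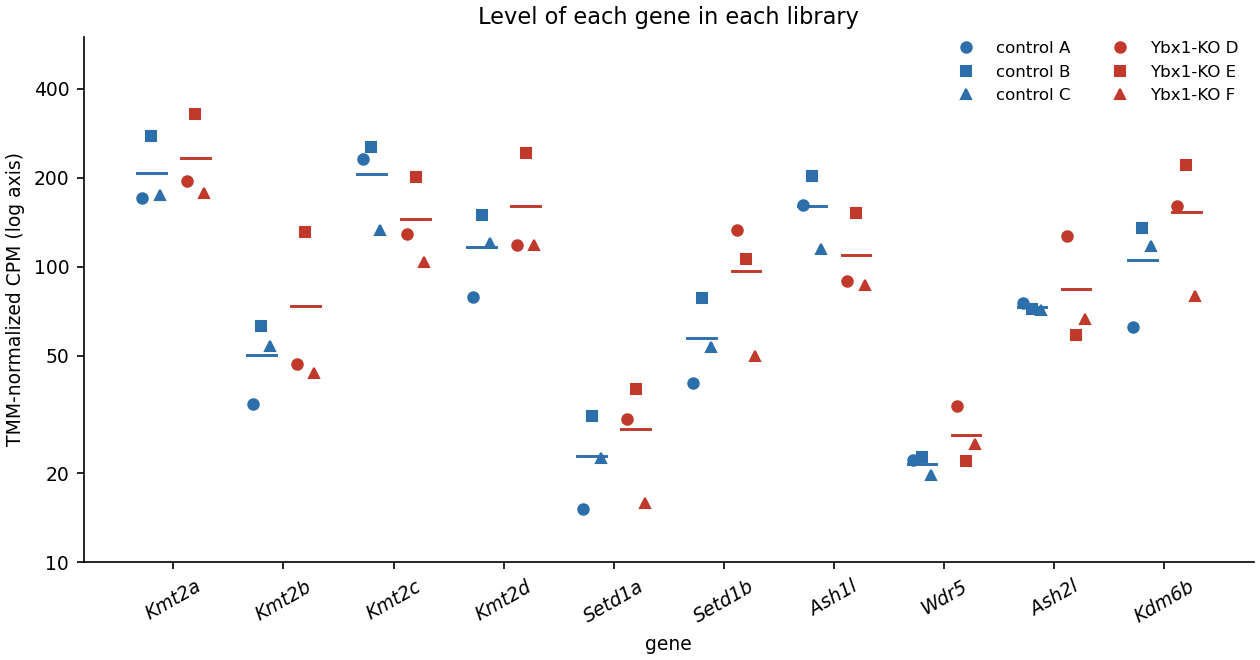
TMM-normalized CPM (log axis) of each gene in each library, with controls A, B and C in blue, Ybx1-KO D, E and F in red, and a horizontal line at each group's mean (n = 3). The 2 groups overlap for all 10 genes, E is the highest library for 5 of them and D for 3.

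The members shared some of their high and low libraries. E was the highest library for Kmt2a, Kmt2b, Kmt2d, Setd1a and Kdm6b, and D for Setd1b, Wdr5 and Ash2l. Control A was the lowest library for 6 members, and for Kdm6b its level of 62.4 CPM was less than that of any other library. Correlations between members over the 6 libraries ran from -0.56 (Ash1l and Wdr5) to 0.98 (Kmt2b and Kmt2d), with Setd1a and Kdm6b at 0.97 and Kmt2c and Ash1l at 0.97. These are descriptions over 6 points that share their depth and base composition with the whole library. The levels also carry the TMM factor of each library. It was 0.727 for E, which raises its CPM, and 1.568 for F, which lowers its CPM. The other libraries had 0.902 to 1.045, and the part of these factors in the shared pattern was not tested. The genes most like the mean profile of the 10 members, among 9173 protein-coding genes with at least 10 CPM on average, were Map1a (Pearson r = 0.9907 over 6 libraries), Fasn (0.9907), Sulf2 (0.9881), Sall2 (0.9876) and Sh3pxd2b (0.9867). Their transcripts had 53.2% to 57.9% G and C. Map1a, for a microtubule-associated protein of neurons, stood at 47.7, 116 and 64.2 CPM in the controls and at 99.2, 135 and 47.5 CPM in the Ybx1-KO libraries, so that B and E were high and A and F low, as they were for Kmt2b and Setd1a. Kmt2c and Ash1l differed from this, with A their second highest library.

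Compared per kilobase of exon, Kdm6b was the most abundant of the group in control NPCs at 15.1 ± 5.47 CPM per kilobase (SD, n = 3). Kmt2a followed at 12.4 ± 3.60, Ash1l at 10.8 ± 2.98 and Kmt2c at 10.2 ± 3.17 CPM per kilobase. Ash2l stood at 8.12 ± 0.269, Wdr5 at 5.99 ± 0.434, Kmt2d at 5.84 ± 1.78, Kmt2b at 5.25 ± 1.53, Setd1b at 4.76 ± 1.59 and Setd1a at 3.38 ± 1.18 CPM per kilobase. Each neighbour in this order overlapped the next among the controls, except that Ash2l was above Wdr5 in every control. Setd1a was last in all 6 libraries, and even so 59.1% of tested genes had a lower control level per kilobase. In the Ybx1-KO libraries the means per kilobase ran from 22.1 ± 10.1 for Kdm6b to 4.16 ± 1.68 for Setd1a, with Ash1l at 7.38 ± 2.51, Kmt2c at 7.12 ± 2.47 and Setd1b at 7.99 ± 3.51 (SD, n = 3). The place of Ash2l depended on the length used, since with its longest protein-coding transcript it had 22.0 ± 0.730 CPM per kilobase in the controls and came first.

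Exon length moved with the fold change across the tested genes. The median log2 fold change of the tested genes went from 2.54 in the decile with the shortest exons to -0.25 in the decile with the longest, which starts at 8364 bases (a decile here being 2133 genes). Across all 21330 genes, Spearman's rho of the log2 fold change with exon length was -0.43, across genes that are not independent replicates. Among the 13694 protein-coding genes it was -0.32. The filter is on a group's mean FPKM, so a gene high in a single library can pass it. Without F, 15185 genes passed. The deciles and rho thus include genes that passed only with F, and their part in the trend was not tested. Kmt2a, Kmt2b, Kmt2c, Kmt2d, Setd1b, Ash1l and Ash2l fell in the longest decile, where 32.5% of genes had a log2 fold change above 0. Of these 7 members, 5 were above 0. Setd1a and Kdm6b fell in decile 9 (median -0.10) and Wdr5 in decile 7 (median 0.09). These places depend on the length used. By the longest protein-coding transcript, Ash2l fell in decile 7 (median 0.09), and Setd1a and Kdm6b in the longest decile (median -0.23). Set against genes of like exon length, 8 members stood above the median of their decile, from Wdr5 by 0.23 to Setd1b by 1.00 on the log2 scale, and Kmt2c and Ash1l stood below it by 0.26 and 0.30.

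**Figure D2:**
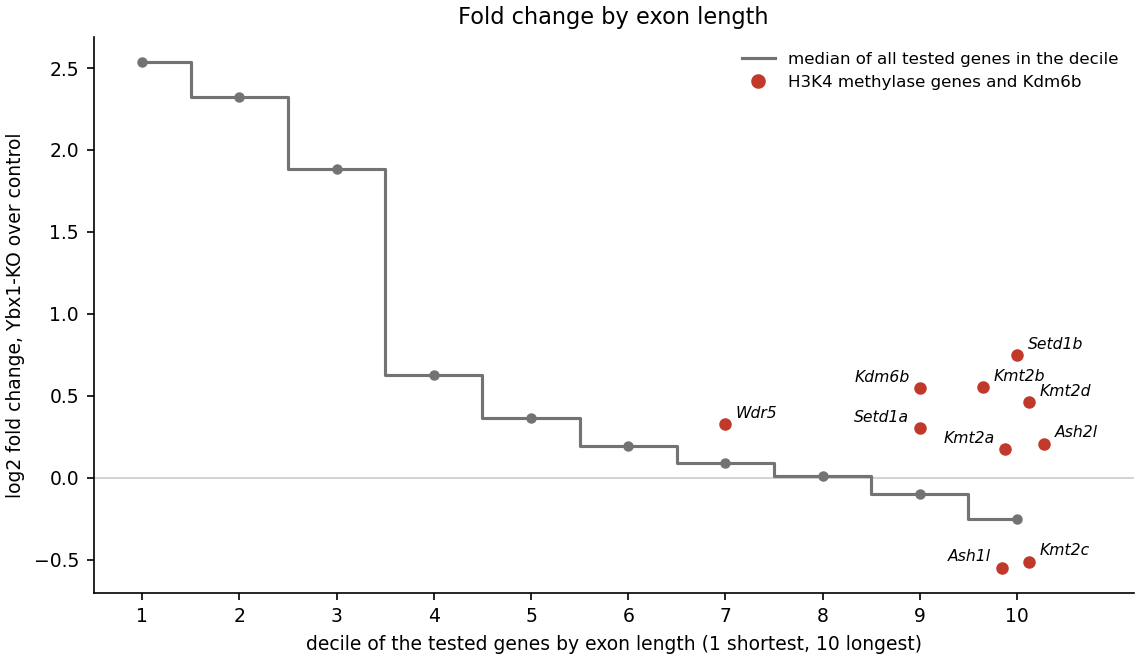
Log2 fold change (Ybx1-KO over control) by decile of exon length. The grey steps are the medians of all tested genes, 2133 in each decile, and the red points are the 10 described genes, spread sideways within a decile for legibility. The medians go from 2.54 to -0.25, and 8 of the 10 genes lie above their step.

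The relation with length was steepest in library F. Within a library, the slope of a gene's deviation from its mean on exon length was -0.16 log2 units per doubling in F, and between -0.01 (D) and 0.07 (B) in the others. Without F the longest decile had a median log2 fold change of -0.08 in place of -0.25. With an offset for exon length in the fit, the log2 fold changes were 1.05 for Setd1b, 0.79 for Kmt2d, 0.70 for Kmt2b, 0.67 for Kdm6b, 0.52 for Kmt2a, 0.45 for Ash2l, 0.43 for Setd1a and 0.38 for Wdr5, and those of Kmt2c and Ash1l were -0.08 and -0.21. The median of the members became 0.49 beside 0.30 for all tested genes. The offset did not remove the trend, since the decile medians still went from 1.71 for the shortest exons to 0.03 for the longest. Setd1b alone then had an unadjusted p under 0.05, with an adjusted p of 0.50 by edgeR, and 0.0% of genes were called. Thus the length offset, a partial correction, moved all 10 values upwards and called none.

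**Figure D3:**
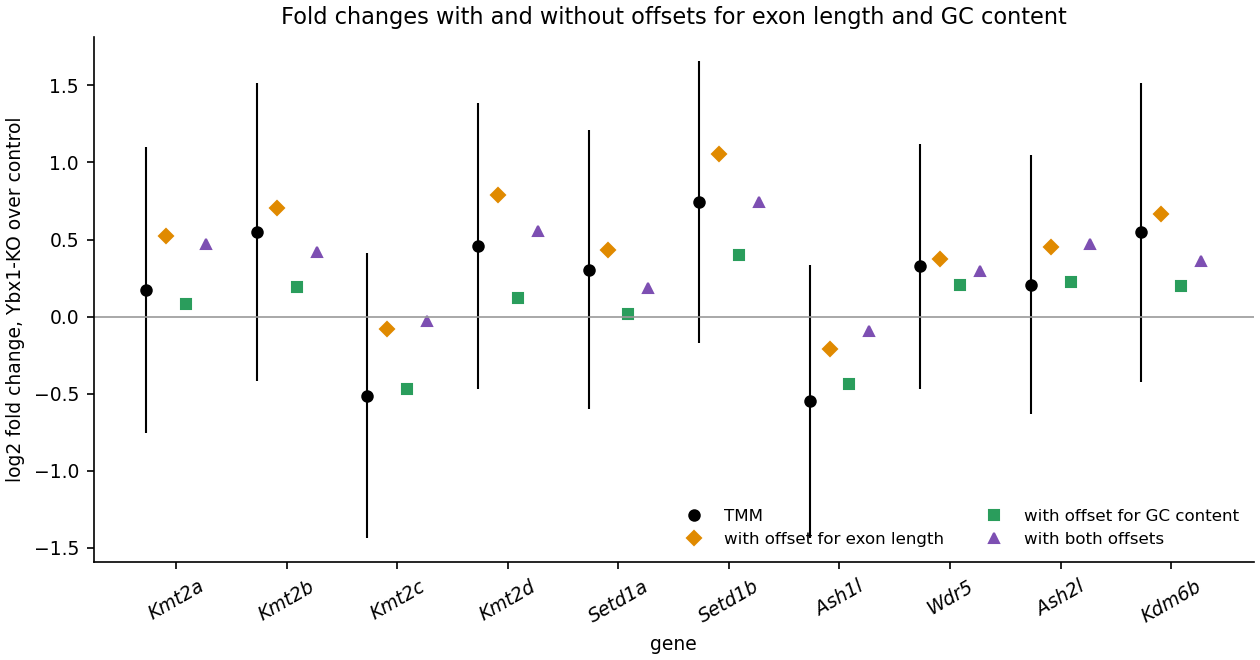
Log2 fold change (Ybx1-KO over control) of each gene from the fit with TMM scaling (black, bars are 95% intervals) and from fits with an added offset for exon length, for GC content or for both. All 10 black intervals include 0, and with the GC offset Setd1b goes from 0.75 to 0.40.

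Among genes as long as these, the fold changes also moved with base composition. In the longest decile, the median log2 fold change was -0.50 for the 767 genes whose transcript had under 45% G and C, -0.26 for the 679 genes at 45% to 50%, 0.00 for the 451 genes at 50% to 55% and 0.29 for the 236 genes at 55% or more. Kmt2c (47.6%), Ash1l (45.4%) and Ash2l (48.6%) belong to the second class and Kmt2a (50.6%) to the next, and Kmt2b (59.1%), Kmt2d (58.4%) and Setd1b (59.0%) to the richest. Over the 10 members, Spearman's rho of the log2 fold change was 0.93 with GC content and -0.33 with exon length, as a description of 10 genes measured in the same 6 libraries. Among all protein-coding genes tested, rho with GC content was 0.34. Each library had its own slope: -0.28 log2 units per 10% of G and C in A and -0.16 in B, 0.12 in C, 0.23 in D and 0.21 in E, and -0.11 in F. Thus 2 of 3 controls and 2 of 3 Ybx1-KO libraries had opposite slopes. Their part in the fold changes was examined by the offset for GC content alone.

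**Figure D4:**
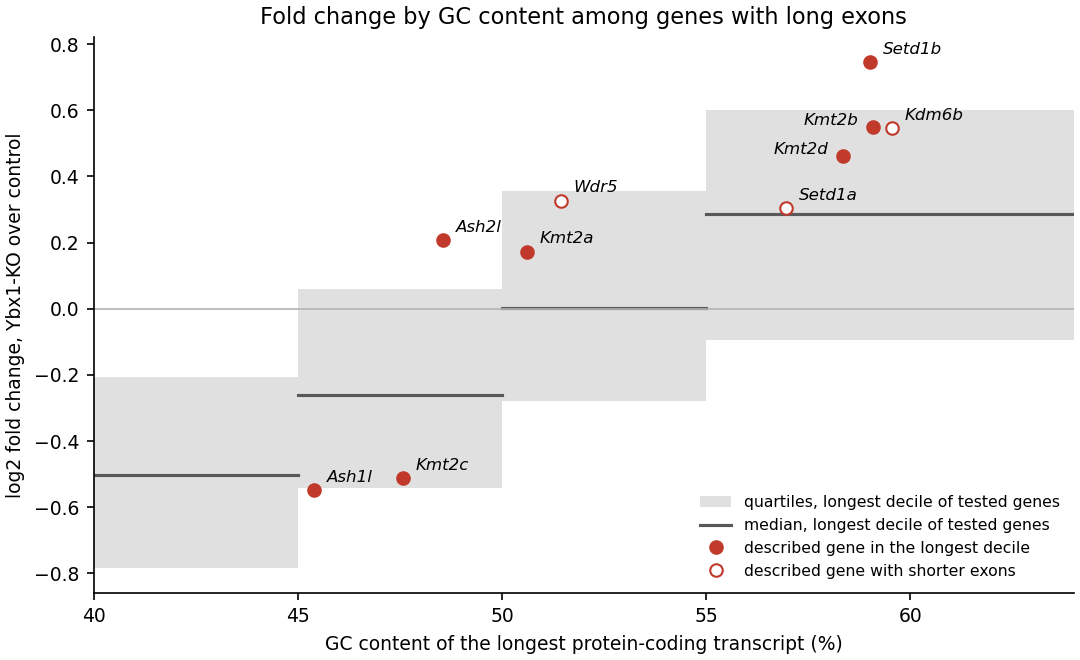
Log2 fold change (Ybx1-KO over control) against the GC content of the longest protein-coding transcript. Grey bands and lines are the quartiles and medians of the longest decile of tested genes in 4 classes (under 45%, 45% to 50%, 50% to 55%, and 55% or more, the outer classes drawn to the edge of the plot). The class medians go from -0.50 to 0.29, and the 4 described genes with more than 58% G and C lie between 0.46 and 0.75.

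With an offset for GC content, the fold changes of the GC-rich members became smaller: 0.40 for Setd1b, 0.20 for Kdm6b, 0.19 for Kmt2b, 0.12 for Kmt2d and 0.02 for Setd1a on the log2 scale. Those of Kmt2c and Ash1l stayed at -0.47 and -0.44, and those of Ash2l, Wdr5 and Kmt2a were 0.23, 0.20 and 0.08. With both offsets Kmt2c and Ash1l were near 0, at -0.03 and -0.09, and Setd1b was at 0.75. The order of the members thus depended on the correction, with Setd1b highest under each of the 3.

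The ratio of related genes within a library does not depend on how the library was scaled. Kmt2c over Kmt2d, per kilobase of exon, was 2.89, 1.67 and 1.08 in the controls and 1.07, 0.810 and 0.862 in the Ybx1-KO libraries. Even the lowest control, C, was above each of these. Which gene was the more abundant in Ybx1-KO depended on the length used: with the longest protein-coding transcript as length, Kmt2c was above Kmt2d in every library (8.64 against 5.98 CPM per kilobase in D, 13.4 against 12.3 in E and 6.93 against 5.96 in F), a choice that leaves the difference between the groups as it is. The mean log2 ratio was 0.80 ± 0.71 (SD, n = 3) in controls and -0.14 ± 0.21 in Ybx1-KO, a difference of -0.94 with no overlap (two-sided exact permutation p = 0.1, the smallest that 3 against 3 allow, and 0.15 adjusted over 3 pairs). The gap between the groups was narrow, with C at 1.08 and D at 1.07. Without control A the difference was -0.57. The 2 genes also differ by over 10 percentage points in GC content, and with the offset for GC content the groups overlapped, with a difference of -0.71.

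Setd1a over Setd1b was 0.663, 0.705 and 0.747 in the controls and 0.407, 0.644 and 0.565 in the Ybx1-KO libraries. The mean log2 ratio was -0.51 ± 0.086 (SD, n = 3) in controls and -0.92 ± 0.34 in Ybx1-KO, a difference of -0.41 without overlap (two-sided exact permutation p = 0.1, and 0.15 adjusted over 3 pairs). These genes are close in GC content (57.0% and 59.0%), the controls lay within a narrow range and D was the most distant library. Without D the difference was -0.22. It was -0.56 with the offset for exon length, with no overlap, and -0.37 with that for GC content, where A and E overlapped. Kmt2a over Kmt2b was 2.87, 2.52 and 1.87 in the controls and 2.40, 1.45 and 2.34 in the Ybx1-KO libraries, so the groups overlapped (difference in mean log2 ratio -0.25, exact permutation p = 0.5). Neither of the first 2 ratios could have passed a threshold of 0.05 with 3 libraries a group.

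**Figure D5:**
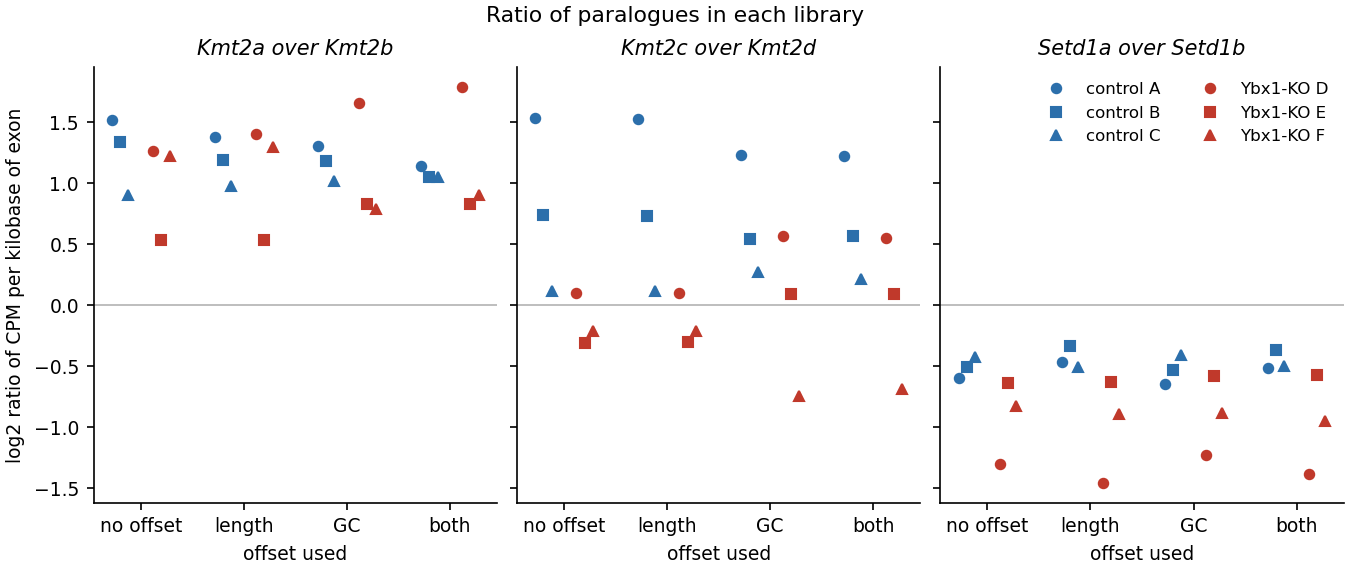
Log2 ratio of CPM per kilobase of exon for 3 pairs of related genes in each library (controls A, B and C in blue, Ybx1-KO D, E and F in red), without an offset and with offsets for exon length, GC content or both. Without an offset the Ybx1-KO libraries lie below the controls for Kmt2c over Kmt2d and for Setd1a over Setd1b, and with the GC offset the groups overlap for all 3 pairs.

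The partners of these enzymes gave no call either. Of 28 other genes of the H3K4, H3K27 and H3K36 machinery, PRC2 aside, 27 were tested. Of these, 6 had a log2 fold change above 0 and 21 below, with a median of -0.30. Among all tested genes 61.3% were above 0, and 32.5% in the decile with the longest exons. Within that decile the share was 14.7% at under 45% G and C and 66.5% at 55% or more. The part of length and base composition in the count was not tested. None of the 27 had an unadjusted p under 0.05, and the smallest adjusted p was 0.450 (edgeR). The groups did not overlap for Hcfc2 and Kdm6a and for the PRC2 genes Ezh2 and Suz12, all with Ybx1-KO below, beside the 8.16% of tested genes in that position.

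In the core that all the H3K4 methylases share, with 2 of 4 genes above 0, Rbbp5 was at -0.75 (SE 0.397, adjusted p = 0.450) and Dpy30 at -0.56 (SE 0.422, adjusted p = 0.535), both on the log2 scale and with overlap, while Wdr5 and Ash2l were above 0. Among 8 subunits particular to the Setd1 or the Kmt2a and Kmt2b complexes, 2 were above 0 and 6 below. Bod1 (0.37) and Hcfc1 (0.35) had the highest log2 fold changes and Hcfc2 (-0.76) and Bod1l (-0.47) the lowest. Hcfc2 stood at 37.7, 28.1 and 21.4 CPM in the controls and at 19.8, 12.2 and 19.5 CPM in the Ybx1-KO libraries (exact permutation p = 0.1, adjusted p = 0.450 by edgeR).

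Of the subunits particular to the Kmt2c and Kmt2d complexes, 3 of 4 were tested, 1 above 0 and 2 below. They were Paxip1 at 0.41, Ncoa6 at -0.10 and Kdm6a at -0.64 on the log2 scale, and Pagr1a had no count in any library. Kdm6a, the X-linked demethylase of lysine 27, stood at 79.2, 79.2 and 73.4 CPM in the controls and at 59.8, 58.3 and 31.1 CPM in the Ybx1-KO libraries (SE 0.383, adjusted p = 0.470 by edgeR, exact permutation p = 0.1). The X-linked Xist stood at 745.4, 3.09 and 486.6 CPM in the controls and at 4.99, 93.0 and 20.6 CPM in D, E and F. The groups thus differed in this sex-linked RNA, and the part of sex in the values of Kdm6a was not tested. In the same family, Kdm6b had a log2 fold change of 0.55 and the Y-linked Uty one of 0.02, Uty being near 0 in control C. Kdm6a and Kdm6b thus had fitted values of opposite sign, and no test of their difference was made.

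The other SET genes tied to H3K4 gave 2 values above 0 and 1 below: Prdm9, a meiotic methylase, at 0.79, Setd7 at 0.23 and Kmt2e at -0.56. The value of Prdm9 went with 14.1 CPM in F and 2.08 to 4.12 CPM elsewhere. All 6 H3K4 demethylases were below 0, with Kdm5b (-0.04) and Kdm5c (-0.05) the least and Kdm5a (-0.66) and Kdm1b (-0.49) the most. All 5 methyltransferases of lysine 36 were below 0 as well, from Nsd2 (-0.14) and Nsd1 (-0.30) to Nsd3 (-0.51) and Ash1l. PRC2 had 1 of 5 genes above 0, with Jarid2 at 0.09, Eed at -0.09, Suz12 at -0.56 and the methylase Ezh2 at -0.55 on the log2 scale. With the offset for exon length the median of the lysine 36 group went from -0.48 to -0.16 and that of the H3K4 demethylases from -0.28 to -0.12. The common direction was then lost in both lists, with Kdm5b (0.38), Kdm5c (0.08), Kdm5d (0.46), Nsd1 (0.05) and Nsd2 (0.27) above 0. None of these lists held a called gene, and the lists were chosen with earlier results of these data known.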

How the data were processed

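Total RNA of Sox2-positive sorted cells was made into stranded libraries and sequenced as read pairs. The authors counted read pairs on genes with HTSeq 0.6.1p1 and deposited raw counts per gene symbol for 6 libraries, with no normalization or pooling. The submitters' processing notes name mm10 and GRCm38.p5, and the aligner and the strand setting of the counting are not given in the sources used here. Exon lengths, GC content of the longest protein-coding transcript, and sequences came from GENCODE M21; 47624 symbols matched by name, 359 by an older name and 3750 did not match, and these last could not enter the test. The 21330 genes whose mean FPKM exceeded 1 in controls or in Ybx1-KO were tested in R 4.3.3 with edgeR 4.0.16 (TMM, quasi-likelihood test, Benjamini-Hochberg over all genes), and figures were drawn with matplotlib 3.10.9. Single genes and ratios were compared by two-sided exact permutation tests. Alternatives were limma-voom (limma 3.58.1), DESeq2 1.42.0, other scalings and filters, protein-coding genes alone, subtraction of a background estimated on receptor genes, offsets for exon length and GC content (a loess per library), and each library left out in turn; the length offset with a library left out, and ratios after offsets, were added after the data were seen. The tests were tested on simulated data. A library's 3 counts correspond to 0.126 to 0.632 CPM, which covers counting error only.

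The named genes are the members, Ybx1, up to 2 highest and 2 lowest genes of each list of partners, the 5 genes most like the members, and single cell markers. The members and lists were chosen with earlier results of these data known, and Wdr5b, Kdm6bos, Gm49388 and the named markers after values were seen. The study's methods speak in general of biologically independent replicates and of littermates, but the labels do not say which embryos gave each library. A and B share a number in their titles, as do D and E, so p-values measure the spread between these libraries.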

Additional observations from a re-analysis of the deposited data

Results flagged for a closer look

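Library F of the Ybx1-KO group had 8.24 read pairs outside genes for each count on genes, where the highest control had 2.00. It was singled out because the tally of reads outside genes, which no comparison above uses, exceeded its level in the controls. F was the lowest library for Kmt2c (104 CPM) and Ash1l (87.0 CPM). Without F the log2 fold change was 1.08 for Setd1b and 0.86 for Kdm6b. With a background estimated on receptor genes subtracted from all libraries, these were 0.77 and 0.59, beside 0.75 and 0.55 without the subtraction, and those of Kmt2c and Ash1l were -0.48 and -0.51.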

How the results depend on the processing

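No paired analysis was possible because no label pairs a control library with a Ybx1-KO library. No member was called under any alternative. With total count scaling in place of TMM, Setd1b was at 0.87 on the log2 scale (unadjusted p = 0.0375, adjusted p = 0.447 by edgeR). It was 1 of 1806 genes that were higher at an unadjusted p under 0.05 in that fit.

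Counts of called genes changed with the settings. No gene was called higher or lower by edgeR with all 6 libraries (1484 and 909 at an unadjusted p under 0.05) or by limma-voom. The study itself reported genes called in both directions, with TMM, voom, a filter on FPKM and the same limits. The reason for that difference was not examined. DESeq2 called 118 higher and 96 lower, testing without a filter called 113 and 80, and the offset for GC content 71 and 44. Leaving out a library gave 0 to 730 called higher and 0 to 216 lower, the most without E, with 531 and 165 without D and 29 and 44 without B. On the genes tested with all 6 libraries the counts were 283 and 137 without E, 79 and 28 without D, 29 and 42 without B, and 27 and 19 without F. With the length offset added they were 189 and 96 without E, 23 and 20 without D, and 25 and 38 without B. The cause was not tested.

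The median of the members stayed above 0, between 0.02 and 0.52 without a library and between 0.40 and 0.67 with the length offset as well. Scaling moved it together with the median of all tested genes, to 0.50 and 0.53 with total counts and to 0.39 and 0.40 with median-of-ratios factors. On the genes tested with all 6 libraries, these medians were 0.46 and -0.07 without F and 0.02 and 0.30 without E. The median of the longest decile ranged from -0.35 to -0.0754, the last without F.

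Directions reversed for 4 members. Without E, Kmt2a was at -0.0332 and Kmt2b at -0.0342, and on the genes tested with all 6 libraries they were at -0.16 and -0.15. Without D, Ash2l was at -0.29, at -0.21 on the genes tested with all 6 libraries, and at -0.0557 with the length offset. Without F and with that offset, Kmt2c was at 0.0755. With a library left out and the genes filtered again, the highest values were 0.44 for Kmt2a (without B), 0.81 for Kmt2b (without F) and 0.50 for Ash2l (without E), and with the length offset they were 0.64 (without F), 0.93 (without F) and 0.71 (without E). The other 6 members kept their direction in all 31 alternatives. Without control A, Kmt2c over Kmt2d differed by -0.57, and without control C by -1.27.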
